A study of Zea mays with 6 samples.

Results

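A stretch of maize chromosome 2, from 30 to 110 Mb on the B73 RefGen_v3 build, was examined locus by locus for transcript differences between o11 mutant and wild-type (WT) kernels. Its members are the loci whose start lies in that stretch and that reached at least 1 FPKM (a fragment count corrected for transcript length and library size) in at least 3 of the 6 libraries. Of the 818 loci in the stretch 530 met this limit, out of 22314 that met it in the whole series and 32666 listed in each file. The stretch was chosen because earlier results on the same o11 against WT comparison had shown many changed loci in some of its windows. All o11 minus WT values below are therefore descriptions, and no test of that contrast is offered in support of the segment.

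The series holds 3 libraries of WT kernels and 3 of homozygous o11 mutant kernels, all taken 15 days after pollination. The kernel is the tissue given in the sample labels, whereas the series design text names the endosperm. The labels give neither the inbred background of the lines, nor the allele of o11, nor whether libraries of a genotype came from separate ears, so the spread between libraries may be partly technical. The files give positions without gene names, and no annotation of the same build was at hand, so loci are named by position and no tissue marker could be checked.

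The protein made from o11 (opaque11) is a transcription factor of the basic helix-loop-helix family. It acts in the endosperm, the compartment of the maize kernel that stores starch and protein. Opaque mutants are named for kernels that transmit little light. Maize chromosomes are gene-rich towards their ends and gene-poor, with many repeats and little recombination, around the centromere, and loci that lie close together in such a region are mostly inherited as a block. The 30 to 110 Mb stretch runs from the short arm into this gene-poor middle part. It held 6.62 tested loci per Mb against 13.3 over the rest of chromosome 2. Within the stretch, the density fell from 14 per Mb between 30 and 40 Mb to 1.3 per Mb between 90 and 100 Mb, and was 3.9 per Mb in the last 10 Mb.

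Summed FPKM per library ran from 784761 to 1072271, and between 2747 and 4248 loci were listed at 0. Steps between low values gave depths of 0.883 to 1.3 relative to WT replicate 1, but the number of fragments itself is not known. Only 13.0% to 22.8% of the loci used for this lay at the depth given (tolerance 0.04 on the log2 scale), so the depths are rough. The replicate 1 libraries of both genotypes were listed with other processing tools than replicates 2 and 3, so comparisons were made in same-numbered pairs. The 530 members took up 1.46%, 1.36% and 1.26% of the FPKM of tested loci in the WT libraries (in the order of their numbers, as in all such lists below). In the o11 libraries they took up 1.65%, 1.6% and 1.5%. The o11 share was the higher in all 3 pairs. The summed FPKM of members was 11699, 12877 and 13431 in WT and 12273, 13303 and 14927 in o11. The sum over all tested loci was lower in o11 in each pair. It was 803303, 944238 and 1066552 in WT and 742223, 830486 and 993462 in o11, so the shares reflect both sums. Fewer cells of a type and less RNA per cell cannot be told apart in such bulk libraries.

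A minority of members differed between the genotypes by a large factor. Most of these were higher in o11, as were most such loci of the whole series. A large change is used here for loci whose 3 pair differences had the same sign and a mean of at least 1 on the log2(FPKM + 1) scale, which understates the fold of low loci. Of the 530 members, 70 (13.2%) met this, 52 higher and 18 lower in o11. Over all tested loci 4.64% met it, 3.33% higher and 1.31% lower, and on the rest of chromosome 2 it was 94 of 2104 (4.47%), 62 higher and 32 lower. The other chromosomes taken singly ran from 3.51% to 5.15%. Without the replicate 3 pair the count of members was 55 (38 higher and 17 lower, 10.4%), against 3.94% of the rest of chromosome 2. When only the 418 members at 1 FPKM or more in all 6 libraries were counted it was 33 (7.89%), 27 higher and 6 lower, against 3.5%.

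Other limits on size gave the same order of the 2 shares. A mean difference of at least 0.5 with the same sign in all pairs was found for 102 members upward and 57 downward (30%, against 19.1% on the rest of the chromosome). At 1.5 the counts were 23 and 8 (5.85% against 1.47%), and at 2 they were 8 and 3 (2.08% against 0.76%). The median size of the change was 0.31 in the segment and 0.23 on the rest of chromosome 2, with an SD over loci of 0.69 and 0.49. The median change itself was near 0 in both (0.04 and -0.01).

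All 3 pair differences had the same sign for 350 members (66.0%, 191 higher and 159 lower), against 59.1% of all tested loci. The ranges of the 2 genotypes were separate for 169 members (31.9%, 93 higher and 76 lower), against 21.5% of all tested loci. In limma's moderated test without pairing 14 members passed an adjusted p of 0.05 (2.64%), against 0.793% of all tested loci. Of these, 9 were higher and 5 lower in o11, against 0.52% and 0.273%. With the replicate number as a block 136 members passed (25.7%, against 19.2%), of which 86 were higher and 50 lower (against 9.83% and 9.33%). These counts depend on the libraries. Without the block, 1 member passed when WT replicate 3 was dropped and 0 passed when any of the other 5 libraries was dropped. In the latter fits 107 to 120 members had an unadjusted limma p under 0.05, and the share of all tested loci with such a p was not counted. With all 6 libraries, 140 members and 3320 of all 22314 tested loci had such a p. With the block, dropping the first or second WT library left 26 (4.91%, against 2.1% of all tested loci) or 38 members (7.17%, against 3.6%). Dropping the first or second o11 library left 27 (5.09%, against 2.33%) or 38 (7.17%, against 3.72%). Dropping replicate 3 of WT or of o11 left 160 in each case (30.2%, against 23.1% and 23.6%). With the block, dropping either library of a pair removes that pair from the difference. The WT and the o11 drop of the same number are therefore not separate checks. Since this contrast was used to choose the segment, nothing is read from these counts.

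**Figure D1:**
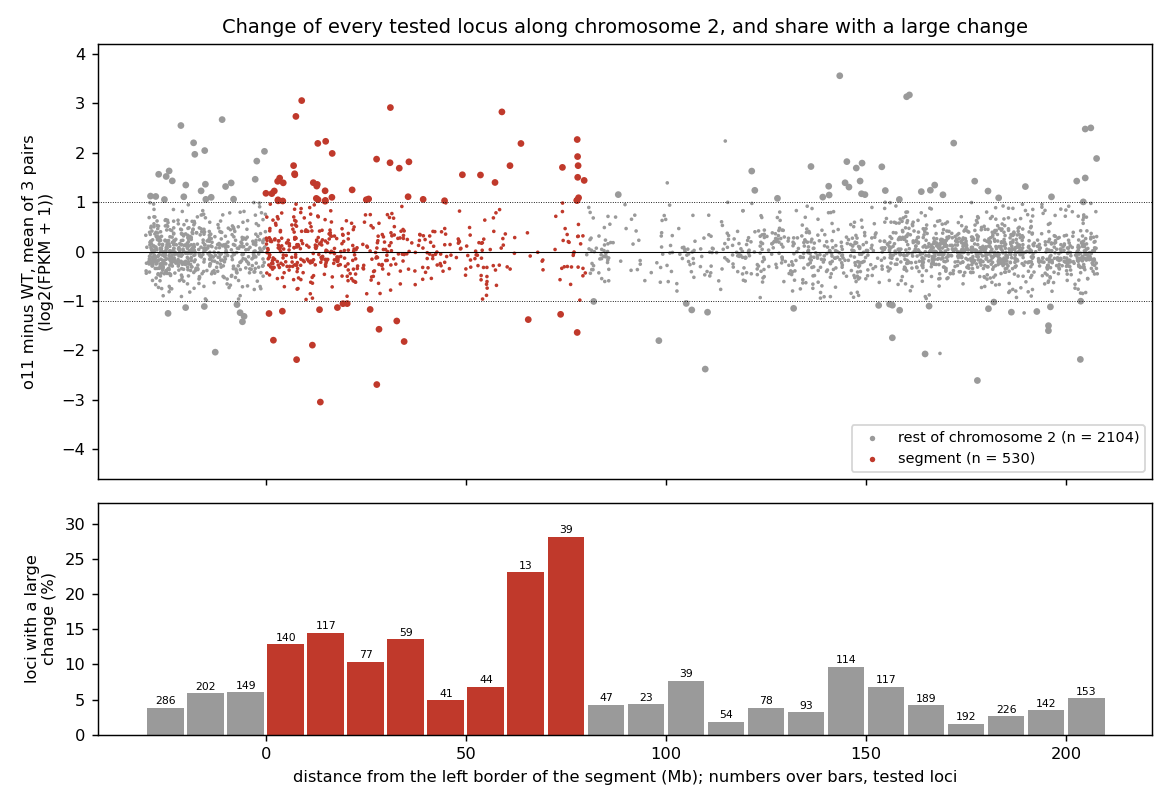
The upper panel plots the mean o11 minus WT difference over the 3 pairs (log2(FPKM + 1)) of each tested locus of chromosome 2 against its distance from the left border of the segment, with large points for large changes. The lower panel gives the percentage of loci with a large change in 10-Mb windows, which ran from 4.88% to 28.2% in the segment (red) and from 1.56% to 9.65% outside it (grey).

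Along the segment, large changes were spread unevenly. The 4 windows from 30 to 70 Mb held 18 of 140 (12.9%), 17 of 117 (14.5%), 8 of 77 (10.4%) and 8 of 59 loci (13.6%). The next 2 windows, from 70 to 90 Mb, held 5 large changes among 85 loci (5.88%), all 5 higher in o11. In this part the SD of the change was 0.57, and the window from 70 to 80 Mb, at 0.43, was lower than the rest of the chromosome. From 90 to 110 Mb the share was 14 of 52 (26.9%), 11 higher and 3 lower. The window from 90 to 100 Mb had only 13 loci (3 of them with a large change), and without the last 20 Mb the segment had 56 of 478 (11.7%).

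The shares differed between the windows on either side of both borders. The 10-Mb window before the segment had a large change at 9 of 149 loci (6.04%), and the window after it at 2 of 47 (4.26%). In 5-Mb windows the share went from 4.05% of 74 loci before the left border to 16% of 75 after it. It went from 32.1% of 28 loci before the right border to 3.23% of 31 after it. The borders follow from the choice of the segment, so these steps are descriptive. Among members, the first and last large changes lay at 30.029 and 109.562 Mb. The longest distance without any was 8.09 Mb, from 95.59 to 103.676 Mb.

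Individual loci show what these counts consist of. Of the members without overlap between genotypes and with at least 5 FPKM in the higher genotype, 62 were higher and 57 lower in o11 (11.7% and 10.8% of the tested members). By the same rule 6.78% of all tested loci were higher and 10.2% lower. The 8 with the largest differences in each direction are described here and plotted by library.

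**Figure D2:**
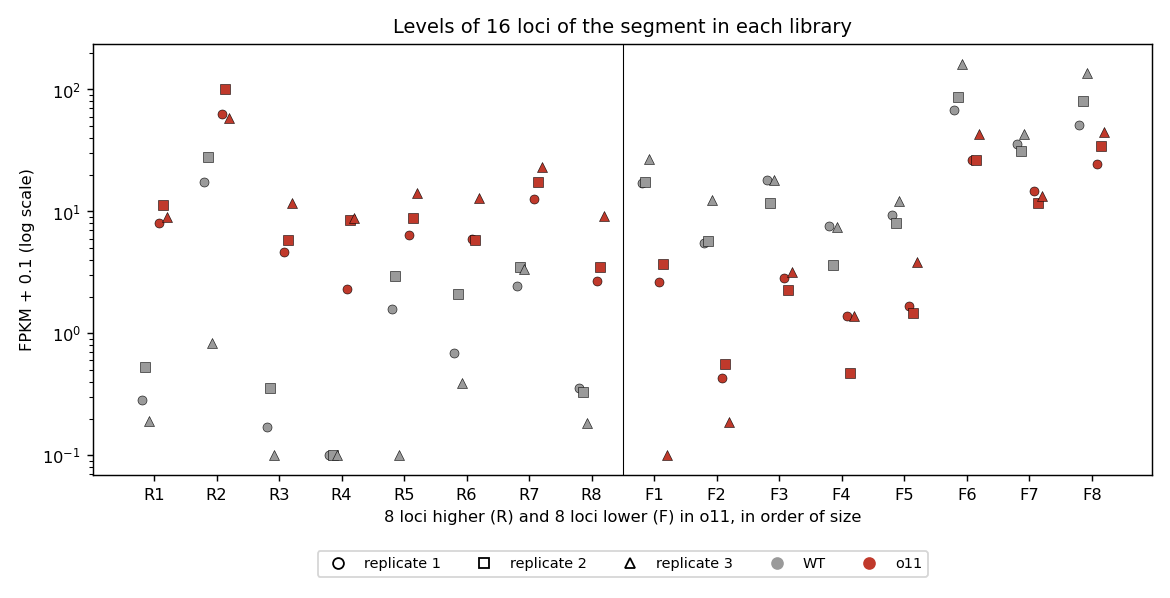
FPKM + 0.1 on a log axis in each of the 6 libraries, for the 8 loci with the largest higher level in o11 (R1 to R8, in the order described) and the 8 with the largest lower level (F1 to F8), with WT in grey, o11 in red and a symbol per replicate number. In R1, R3, R4 and R8 all WT libraries are below 1 FPKM, while in F6 to F8 all o11 libraries stay above 10 FPKM.

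The largest difference upward was at a locus of 1011 bp (chromosome 2, 38970355 to 38971365). It was listed at 0.185, 0.426 and 0.0917 FPKM in WT replicates 1 to 3 and at 7.91, 11.1 and 8.84 FPKM in o11. The pair differences of 2.91, 3.08 and 3.17 were close to each other, and the ratio of mean FPKM was 39.6. A locus at 61.137 Mb (61137166 to 61138179) was at 17.4, 27.9 and 0.728 FPKM in WT and at 63.4, 101 and 58.8 in o11. Here the replicate 3 pair stood apart, with a difference of 5.11 against 1.81 and 1.82, and the WT replicate 3 library was far below the other WT libraries. A locus at 89.003 Mb (89002832 to 89004935) was at 0.0705 and 0.256 FPKM in WT replicates 1 and 2, was listed at 0 in WT replicate 3, and reached 4.57, 5.76 and 11.7 FPKM in o11.

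The shortest of the 8 spanned 460 bp at 37.521 Mb (37520960 to 37521419). It was listed at 0 in all WT libraries and at 2.23, 8.42 and 8.7 FPKM in o11. No fold is given against a group listed at 0. At 107.824 Mb (107824364 to 107825462) WT was at 1.49, 2.88 and 0 FPKM and o11 at 6.33, 8.7 and 14.2. A locus of 965 bp at 44.966 Mb (44965944 to 44966908) was at 0.593, 2.01 and 0.294 FPKM in WT and 5.89, 5.73 and 12.8 in o11, an 8.45-fold higher mean. In the last 2 of these the replicate 3 pair stood apart, with differences of 3.93 and 3.42.

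A locus at 42.992 Mb (42991909 to 42996290) had steadier values. It was at 2.34, 3.38 and 3.29 FPKM in WT and 12.5, 17.2 and 23.2 in o11, with pair differences of 2.02, 2.06 and 2.49. It shares its interval with another listed locus, so how the authors divided reads between the 2 is uncertain. The last of the 8 lay at 93.76 Mb (93759614 to 93761482) in the sparsest window, with 0.26, 0.231 and 0.0827 FPKM in WT and 2.6, 3.39 and 9.04 in o11. Over the 52 members with a large change upward, the median difference was 1.41 and the median level was 2.67 FPKM in WT and 9.33 in o11. The replicate 3 pair gave the largest of the 3 differences for 44 of the 52, and for 10 of the 18 members with a large change downward. Differences in this pair were also wider on the rest of chromosome 2, with an SD of 0.66 against 0.52 and 0.5 in pairs 1 and 2.

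The largest difference downward was at a locus of 991 bp (43628834 to 43629824). It was at 17.1, 17.4 and 26.8 FPKM in WT and at 2.56 and 3.63 in o11 replicates 1 and 2, and was listed at 0 in o11 replicate 3. The differences were -2.35, -1.99 and -4.80. At 57.736 Mb (57736223 to 57738785) WT was at 5.45, 5.67 and 12.2 FPKM and o11 at 0.329, 0.465 and 0.088, a 26.5-fold lower mean. A locus at 37.696 Mb (37696272 to 37700594) was at 18.0, 11.6 and 18.1 FPKM in WT and 2.75, 2.19 and 3.06 in o11. Its pair differences of -2.34, -1.98 and -2.23 were alike, and its mean was 5.96-fold lower in o11.

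At 64.574 Mb (64573886 to 64574874) WT was at 7.45, 3.52 and 7.29 FPKM and o11 at 1.29, 0.373 and 1.29. The differences were alike in the 3 pairs, at -1.89, -1.72 and -1.86. At 31.897 Mb (31897223 to 31902143) WT was at 9.26, 7.99 and 12.0 FPKM and o11 at 1.59, 1.36 and 3.73, a 4.39-fold lower mean. The other 3 were well-expressed loci that were lower in o11 but far from silent. The locus at 107.819 Mb (107818821 to 107820874) was at 67.4, 86.8 and 163 FPKM in WT and 26.2, 26.3 and 43.1 in o11. The locus at 62.73 Mb (62729557 to 62744393), which spans 14837 bp, was at 35.9, 31.3 and 42.8 FPKM in WT and 14.5, 11.7 and 13.3 in o11. At 103.676 Mb (103675901 to 103679774) WT was at 50.8, 80 and 137 FPKM and o11 at 24.5, 34.6 and 44.4. In each genotype the values at 107.819 and 103.676 Mb were highest in replicate 3, and their ratios were 3.32-fold and 2.59-fold lower in o11. Over the 18 members with a large change downward, the median difference was -1.39, and the median level was 5.84 FPKM in WT and 0.939 in o11.

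Some members had a low mean in 1 genotype only, although single libraries of that genotype could exceed 1 FPKM. A WT mean under 1 FPKM with an o11 mean of at least 5 FPKM was found for 7 members (1.32%), against 0.193% of all tested loci and 3 of 2104 on the rest of chromosome 2. The reverse pattern was found for 3 members (0.566%), against 0.0403% of all tested loci and 1 on the rest of the chromosome. Beside loci already described, the 7 hold the loci at 46.597 Mb and 65.765 Mb. The locus at 46.597 Mb was at 0, 0.701 and 0.188 FPKM in WT and 1.07, 2.9 and 14.6 in o11. The locus at 65.765 Mb was at 1.72, 0.939 and 0 FPKM in WT and 4.83, 7.9 and 3.44 in o11. The 3 members of the reverse pattern were those at 57.736 and 64.574 Mb and a locus at 58.29 Mb, which was at 5.8, 9.77 and 1.18 FPKM in WT and 0.758, 1.59 and 0.337 in o11.

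Listed at 0 in all WT libraries and at 1 FPKM or more in all o11 libraries were 2 members, against 0.0359% of all tested loci (8 of 22314) and 0 on the rest of chromosome 2. Beside the locus at 37.521 Mb this was a locus of 321 bp at 83.646 Mb (83646031 to 83646351), with 3.64, 1.26 and 1.39 FPKM in o11. The opposite pattern was found for 0 members. A value of 0 in such files can be a failed estimate.

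The limit of 1 FPKM in 3 libraries lets in loci that only 1 genotype expresses, which then had to differ. Such loci, under 1 FPKM in every library of the other genotype, numbered 15 for o11 (2.83% of members) and 7 for WT (1.32%). On the rest of chromosome 2 they numbered 17 (0.808%) and 14 (0.665%). With them set aside, 54 of 508 members (10.6%) had a large change, 41 higher and 13 lower, against 85 of 2073 (4.1%) on the rest of chromosome 2. The 36 members at 1 FPKM or more in exactly 3 libraries had a median level of 1.16 FPKM. The 36 loci of the segment that just missed the limit, at 1 FPKM or more in exactly 2 libraries, had a median of 0.747 FPKM. At the limit on size, the members nearest to it were those at 44.816 and 34.246 Mb with a difference of 1.02 each, just inside, and those at 74.986 and 108.479 Mb with 0.99 and -0.98, just outside.

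Of the 5 most abundant members, 1 had a large change. The highest mean level was at 33.12 Mb (33120217 to 33123687), with 572, 441 and 558 FPKM in WT and 485, 375 and 437 in o11. The o11 library was slightly lower in each pair (-0.24, -0.23 and -0.35), and the genotypes overlapped. The locus with a large change lay at 61.046 Mb (61046133 to 61047877), with 112, 210 and 282 FPKM in WT and 417, 627 and 1077 in o11. It was 3.51-fold higher in o11 by mean FPKM, with pair differences of 1.89, 1.58 and 1.93, although both genotypes varied more than 2-fold among their own libraries. This locus lies next to the one at 61.137 Mb described above, which was also higher in o11.

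The locus at 41.932 Mb was at 485, 452 and 574 FPKM in WT and 336, 297 and 455 in o11. The locus at 32.273 Mb was at 297, 311 and 403 FPKM in WT and 372, 347 and 492 in o11. The locus at 78.235 Mb was at 149, 312 and 451 FPKM in WT and 194, 344 and 498 in o11. The o11 library was lower in each pair at 41.932 Mb (-0.60 to -0.33 on the log2 scale) and higher in each pair at the 2 others (0.14 to 0.38). Among the 20 most abundant members (means from 165 to 478 FPKM), 2 had a large change.

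Level and length were similar in the segment and the rest of the chromosome. The median level was 8.16 FPKM for members and 9.18 on the rest of chromosome 2, and the median genomic span was 3586 and 3750 bp. Loci under 1 kb made up 9.06% and 9.46%. The share with a large change was higher in the segment than on the rest of the chromosome in each class of level and span. By level, it was 17.4% of members under 5 FPKM (4.15% on the rest of the chromosome), 10.9% from 5 to under 20 FPKM (4.76%) and 10% at 20 FPKM or more (4.43%). By span, the share of members was 29.2% under 1 kb (11.1%), 14.9% from 1 to under 5 kb (5.0%) and 6.15% at 5 kb or more (1.7%). Short loci thus had the higher shares in both parts.

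Of the 11 members that span 30 kb or more, 1 had a large change, and the other 10 changed by less than 0.5 on the log2 scale. That locus, with 62383 bp the longest member (63353805 to 63416187), was at 1.7, 2.91 and 0 FPKM in WT and 6.9, 5.48 and 5.89 in o11. The next longest, at 95.38 Mb with 58015 bp, was at 11, 8.67 and 8.22 FPKM in WT and 13.6, 12.5 and 11 in o11. The third, at 51.085 Mb with 54211 bp, was at 6.14, 5.62 and 7.43 FPKM in WT and 5.04, 4.37 and 3.87 in o11.

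The changes of neighbouring members were nearly uncorrelated. Over 515 pairs of neighbouring members the changes correlated at 0.0822 (Pearson's r), and over 2044 such pairs on the rest of chromosome 2 at 0.0686. These are descriptions, and neighbours share libraries. In 10 neighbouring pairs of the segment both members had a large change, in the same direction in 8. On the rest of chromosome 2 this held for 5 of the 2044 pairs, in the same direction in 4, where large changes were also rarer (4.47% of loci, against 13.2% in the segment). The median distance between the starts of successive members with a large change was 0.554 Mb, so unchanged loci lay between most of them.

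There were 2 stretches of at least 3 successive members with differences of at least 1 in the same direction, both upward. The stretch at 32.961 to 33.07 Mb held 3 loci. Its first member was at 9.87, 12.2 and 11.9 FPKM in WT and 28.2, 31.7 and 36.4 in o11. The 2 others were at 1.04, 0.649 and 1.4 against 3.27, 2.2 and 4.22 FPKM, and at 3.99, 4.88 and 3.69 against 9.21, 8.98 and 10.4 FPKM. The 3 differed by 1.42, 1.05 and 1.03 on the log2 scale, and the abundant locus at 33.12 Mb just beyond them did not follow.

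The other stretch began with the locus at 107.824 Mb and went on with loci at 107.916 and 107.945 Mb. The locus at 107.916 Mb was at 15.9, 16.9 and 12.0 FPKM in WT and 46.2, 50.2 and 87.2 in o11, a 4.10-fold higher mean. The locus at 107.945 Mb was at 1.31, 1.28 and 0 FPKM in WT and 3.46, 3.74 and 4.64 in o11. On its left this stretch borders on the locus at 107.819 Mb, which was lower in o11 and ends 3489 bp before the locus at 107.824 Mb begins. Counted from 107721878 to 107946731, a range chosen after its values were seen, 6 successive members over 225 kb all differed by at least 1 on the log2 scale, 5 upward and 1 downward.

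At the borders themselves, the last tested locus before the segment, at 29.894 Mb, was at 65.8, 62.3 and 63.8 FPKM in WT and 74, 71 and 116 in o11. The first member, at 30.029 Mb, was at 0.389, 0.424 and 0.909 FPKM in WT and 1.73, 1.74 and 4.86 in o11. The last member, at 109.843 Mb, was at 1.06, 3.83 and 19.6 FPKM in WT and 2.16, 1.6 and 9.14 in o11, with differences of both signs. The first tested locus after the segment, at 110.205 Mb, was nearly equal in the genotypes, at 5.31, 6.79 and 1.98 FPKM in WT and 5.17, 6.13 and 1.93 in o11.

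The pairs gave similar pictures, with larger differences in replicate 3. A difference of at least 1 in size was found upward and downward for 42 and 19 members in pair 1, 38 and 21 in pair 2, and 71 and 37 in pair 3. These were 7.92% and 3.58% of the members in pair 1, against 3.97% and 1.64% of all tested loci. In pair 2 they were 7.17% and 3.96%, against 2.95% and 1.93%, and in pair 3 they were 13.4% and 6.98%, against 6.78% and 2.72%. The SD of the difference over members was 0.65, 0.64 and 0.98, against 0.52, 0.5 and 0.66 on the rest of chromosome 2. Differences of pair 1 and pair 2, which share no library, correlated over the 530 members at 0.834 (Pearson's r; Spearman's rho 0.779), and over the 2104 other loci of the chromosome at 0.72 (rho 0.678). With pair 3 the members correlated at 0.74 and 0.749. The points share the libraries of each pair, and the correlations are descriptive.

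**Figure D3:**
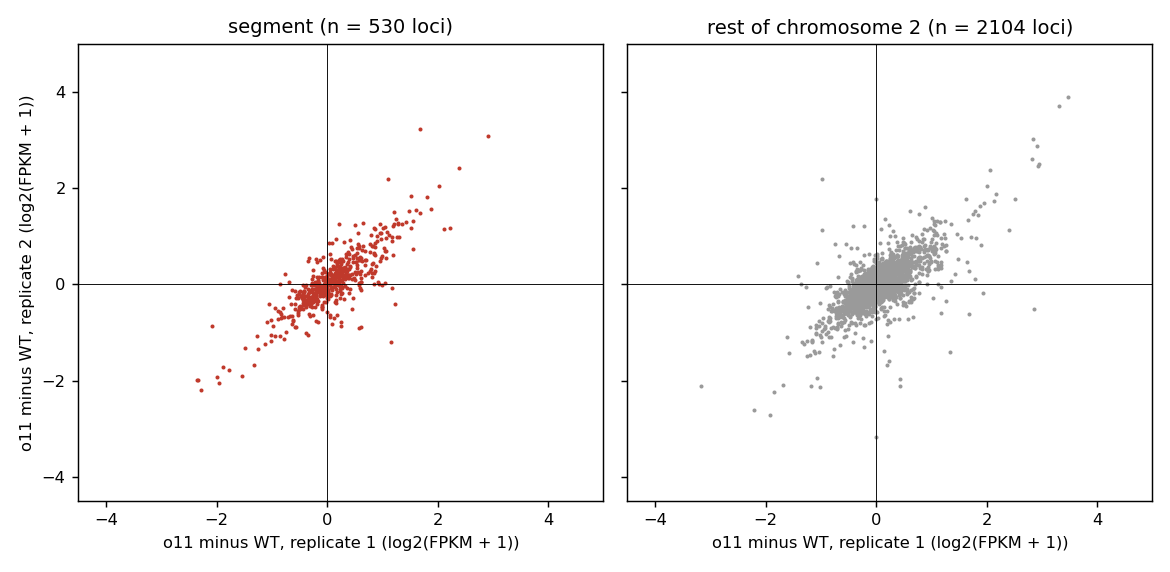
Each point is a tested locus, with its o11 minus WT difference in the replicate 1 pair on the x axis and in the replicate 2 pair on the y axis (log2(FPKM + 1)), for the segment on the left and the rest of chromosome 2 on the right. The differences in the 2 pairs correlated at 0.834 in the segment and at 0.72 outside it.

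Libraries of the same genotype had a similar spread in the segment and elsewhere when replicates 1 and 2 were compared. The SD of replicate 2 minus replicate 1 was 0.49 over members and 0.55 over the rest of chromosome 2 in WT, and 0.41 and 0.42 in o11. A difference of at least 1 in size was found for 4.72% of members and 6.23% of the other loci in WT, and for 2.83% and 2.8% in o11. Comparisons with replicate 3 had a wider spread in both parts, and it was somewhat wider in the segment. Replicate 3 minus replicate 1 had an SD of 0.91 over members and 0.81 over the rest in WT, and of 0.83 and 0.75 in o11. For replicate 3 minus replicate 2 the SD was 0.9 and 0.75 in WT, and 0.8 and 0.67 in o11.

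**Figure D4:**
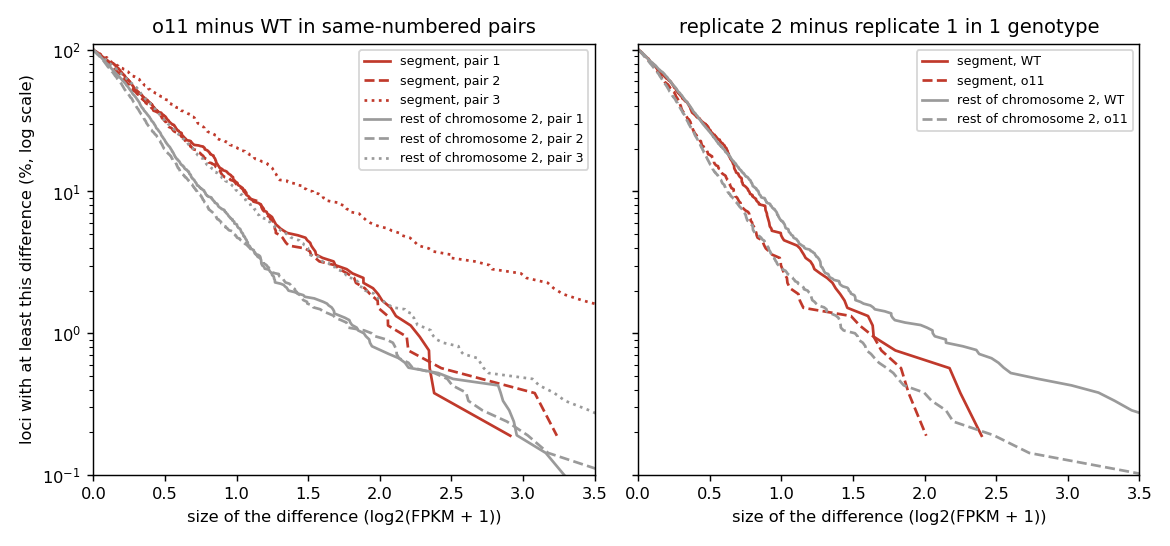
Percentage of loci (log scale) whose difference reached at least the size on the x axis (log2(FPKM + 1)), for o11 minus WT in each pair (left) and for replicate 2 minus replicate 1 within each genotype (right), in the segment (red) and the rest of chromosome 2 (grey). The red curves lie above the grey ones at a difference of 1 in each pair on the left, whereas at 1 on the right they lie below in WT (4.72% against 6.23%) and close together in o11 (2.83% and 2.8%).

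The contrast of replicate 3 against replicates 1 and 2 was not used to choose the segment and was tested. With genotype and every replicate number in the model, the error reflects only how far the shifts of WT and o11 differ. The p-values and SE of this fit therefore do not measure the spread between replicates 1 and 2. In limma with genotype and replicate number as terms, 158 members passed an adjusted p of 0.05 (29.8%), 79 higher and 79 lower in replicate 3. Over all tested loci 33.1% passed (18.3% higher and 14.8% lower), so the share in the segment was near the background. At least 1 in size were 50 changes of members (9 higher and 41 lower, 9.43%), against 8.68% of all tested loci (651 higher and 1285 lower). The median size of the change was 0.31 in the segment and 0.31 on the rest of chromosome 2, with an SD over loci of 0.76 and 0.66. With a term for replicate 3 alone in place of the replicate numbers, 67 members passed (20 higher and 47 lower), which was 12.6% against 11.8% of all tested loci. From 158, the count fell to 84 members without WT replicate 1 (15.8%, against 14.9% of all tested loci). It was 87 without WT replicate 2 (16.4%, against 16.6%). It was 95 without o11 replicate 1 (17.9%, against 18.7%) and 85 without o11 replicate 2 (16%, against 15.8%). The share of all tested loci thus fell as well. Leaving out a replicate 3 library leaves 1 library on that side, so no count is given. With upper-quartile scaling the count was 157 (29.6%, against 32.2%), with 62 higher and 95 lower.

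The 4 largest replicate 3 changes among members with a mean of at least 5 FPKM were all falls, and all were found in both genotypes. The locus at 106.917 Mb (106916508 to 106917779) was at 231, 271 and 1.69 FPKM in WT and 163, 194 and 3.9 in o11, and fell by 5.87 on the log2 scale (SE 0.31, limma adjusted p = 0.000909). The locus at 55.392 Mb (55391917 to 55393690) was at 249, 383 and 12.6 FPKM in WT and 245, 295 and 20.6 in o11, and fell by 4.07 (SE 0.21, limma adjusted p = 0.000931). Both were far higher in each of the other 4 libraries. The locus at 56.075 Mb (56074793 to 56077042) was at 13.1, 20 and 0.297 FPKM in WT and 15.9, 19 and 0.163 in o11, and fell by 3.85 (SE 0.14, limma adjusted p = 0.000422). The locus at 57.436 Mb (57435843 to 57439124) was at 32.6, 51.0 and 5.04 FPKM in WT and 53.8, 72.8 and 1.51 in o11, and fell by 3.73 (SE 0.42, limma adjusted p = 0.00461). In each of the 4 the o11 minus WT difference was above 0 in some pairs and below 0 in others.

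**Figure D5:**
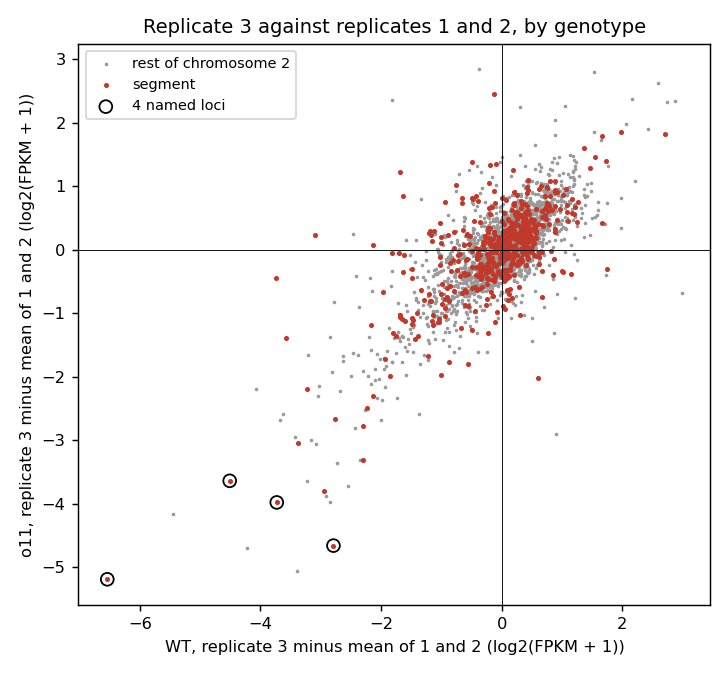
Replicate 3 minus the mean of replicates 1 and 2 (log2(FPKM + 1)) in WT on the x axis and in o11 on the y axis, for members (red) and the rest of chromosome 2 (grey), with the 4 named loci circled. The circled loci lie at -6.54 to -2.79 in WT and at -5.19 to -3.64 in o11, far below 0 in both genotypes.

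Large changes were also counted in 3 other stretches for which results of these data were known. The first 30 Mb of chromosome 7 held 28 of 344 loci (8.14%), the first 35 Mb of chromosome 4 held 38 of 399 (9.52%), and the end of chromosome 3 held 29 of 504 (5.75%). Their SD of the change was 0.58, 0.62 and 0.52, against 0.69 in the chromosome 2 segment. Since these stretches and the segment were all picked on the same contrast, their difference was not tested.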

How the data were processed

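The authors deposited a file of FPKM for each library, per the file headers. Listed tools were Bowtie 0.12.2 (replicate 1 of both genotypes) or TopHat and Cufflinks (replicates 2 and 3), with build B73 RefGen_v3, per the submitters' processing notes. The annotation, strand setting and further scaling are not given in the sources used here. Deposited starts were taken to count from 0 and are printed from 1. Of the 530 members, 40 share their interval with another locus, and 0 overlap a different interval.

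FPKM values plus 1 were put on a log2 scale and fitted in limma 3.58.1 under R 4.3.3 (mean-variance trend, Benjamini-Hochberg over all 22314 tested loci). The model held genotype, and the replicate number was added as a block in an alternative. Deviations from the genotype mean correlated over loci at 0.747, 0.674 and 0.756 for same-numbered libraries, above the limit of 0.1, so numbers were taken to pair libraries. This pairing comes from the data. The fits were also run on simulated data with independent errors, and nothing is read from that run. Descriptive tables were made with Python 3.11.15.

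The segment, its members and the choices above were made with earlier results of these data known. Named loci were the 8 largest differences in each direction (non-overlapping genotypes, 1 sign in all pairs, at least 5 FPKM in the higher genotype), the 5 most abundant and 3 longest members, those at the borders, the 4 largest replicate 3 changes, stretches of at least 3 successive changed members, and loci listed at 0 in all libraries of 1 genotype. Other loci named were chosen after their values were seen. Alternatives changed the pseudocount, filter, scaling, block and libraries. Sequences and gene names were not used here.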

Additional observations from a re-analysis of the deposited data

How the results depend on the processing

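The 14 members past the threshold without the replicate block became 136 with the replicate block. No filter on low values gave 7 (1.32%, against 0.285% of all loci then fitted). Leaving out 1 library gave 0 to 1 (at most 0.189%, against 0.00896% to 0.0627% of all tested loci). Within the block, the count was 150 with quantile normalization (28.3%, against 20.6% of all tested loci) and 139 with upper-quartile scaling (26.2%, against 19.3%). It was 129 without loci of shared intervals (26.3%, against 19.5%) and 118 with a pseudocount of 0.1 (22.3%, against 17.2%). It was 163 in replicates 1 and 2 only (30.8%, against 23.6%) and 26 in replicates 2 and 3 only (4.91%, against 2.13%). Leaving out 1 library gave 26, 27, 38 (2 libraries) or 160 (2 libraries). These were 4.91% to 30.2% of members, against 2.1% to 23.6% of all tested loci. At 0 called members in limma without the block, 107 to 120 had an unadjusted p under 0.05. The share of all tested loci with such a p was not counted in these fits. With all 6 libraries such a limma p was found for 140 members and for 3320 of all 22314 tested loci. The 70 large changes were 91 with a pseudocount of 0.1 (65 higher and 26 lower; 17.2% of members against 7.37% on the rest of chromosome 2), 63 with quantile normalization, 73 with upper-quartile scaling, 66 without loci of shared intervals, 33 among members at 1 FPKM or more in all 6 libraries (7.89% against 3.5%), and 55 to 77 when a pair was left out. The median size of 0.31 was 0.42 in pair 3 alone. The 158 members past the threshold in replicate 3 were 67 with a term for replicate 3 alone, and 84 to 189 when 1 library was left out. Where no share is given beside a count of large changes or of replicate 3 changes, it is not set against other loci. Nothing about the segment is read from such counts. Among 38 named loci and the alternatives run for them (825 values), 6 values changed sign, none of them called and each with 1 library left out. They were -0.22 and -0.09 at 78.235 Mb (range over left-out libraries -0.22 to 0.59), 0.47 at 109.843 Mb (-1.19 to 0.47), and 0.07, 0.22 and 0.33 at 110.205 Mb (-0.47 to 0.33). Dropping libraries also lowers the residual degrees of freedom, and the cause of the other shifts was not tested. The alternatives on large changes, and the block with replicates 1 and 2 only or with a pseudocount of 0.1, were added after the data were seen. Without fragment counts, the counting error of loci near 1 FPKM cannot be given.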
